A study of Mus musculus with 16 samples.

Results

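Alox5 KO and St2 KO group 2 innate lymphoid cells (ILC2) from the duodenum of resting mice were compared, 4 libraries against 4. These are 8 of the 16 libraries of the series and were chosen by the genotype in their sample titles. ILC2 are lymphocytes that reside in tissues, lack rearranged antigen receptors and make type 2 cytokines. The Alox5 KO mice were Alox5 -/- and Il13 smart13/smart13. The St2 KO mice were St2 -/-, Arg1 Yarg/Yarg and Il13 smart13/smart13. The other 8 libraries came from 4 Il25 KO samples (Il25 -/-, Arg1 Yarg/Yarg, Il13 smart13/smart13) and 4 wild-type samples with Il13 smart13/smart13 (WT); they entered the model and are given here only as levels beside the comparison. All groups thus shared the Smart13 reporter at Il13. The Yarg reporter at Arg1 was carried by St2 KO and Il25 KO mice and not by Alox5 KO or WT mice, so the loss of ST2 and the Yarg allele cannot be told apart in this contrast. The mice were C57BL/6, 6 to 10 weeks old, specific-pathogen-free and untreated. Cells were sorted by flow cytometry from the first 5 cm of the proximal small intestine, with a gate that is not given in the sources used here. No Cre or tissue-restricted allele is named, so other cells of these mice may have lacked the same genes. No label ties a library to its own mouse, so p-values cover only the variation among the libraries, which may be technical.

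5-lipoxygenase, encoded by Alox5, starts the synthesis of leukotrienes from arachidonic acid. Cysteinyl leukotrienes bind receptors such as CYSLTR1 on ILC2 and raise intracellular calcium, which activates the transcription factor NFAT. ST2, encoded by Il1rl1, is the receptor for the alarmin cytokine IL-33 and signals through MyD88 to the transcription factor NF-kB and to MAP kinases. NF-kB switches on its own inhibitors, among them IkB proteins and A20, and MAP kinases switch on immediate early genes of the FOS, JUN and EGR families. The comparison addresses which transcripts of resting ILC2 differ between loss of the leukotriene enzyme and loss of the IL-33 receptor.

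Of 11742 genes tested, 57 passed an adjusted p of 0.05 and are termed called (0.485% of genes). Of these, 36 were higher in Alox5 KO (0.307%) and 21 were lower (0.179%). The genes higher in Alox5 KO were led by NF-kB feedback genes, immediate early genes, the mRNA decay factor Zfp36, the cytokine gene Csf2 and the reporter locus Arg1. The genes lower in Alox5 KO included Alox5 itself, the costimulatory receptor gene Cd28 and genes of mixed function. The test was edgeR's quasi-likelihood F test on counts, with genotype and sample-code set as terms and Benjamini-Hochberg adjustment over all tested genes. Fold changes are Alox5 KO over St2 KO on the log2 scale ± SE. Levels are CPM, the counts of a gene relative to the TMM-scaled total of its library, listed in the order of replicates 1 to 4, or as mean ± SD with n = 4 libraries per genotype. The median log2 fold change of all tested genes was -0.013, and 1349 genes had an unadjusted p under 0.05. In 55 of the 57 called genes the Alox5 KO and St2 KO libraries did not overlap, as was so in 9.69% of all tested genes. The calls were made from these same libraries, so a lack of overlap in a called gene describes it and adds no support. A log2 fold change of at least 1 in either direction was reached by 45 of the 57. In these bulk samples, fewer cells of a type and less RNA per cell cannot be told apart.

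**Figure D1:**
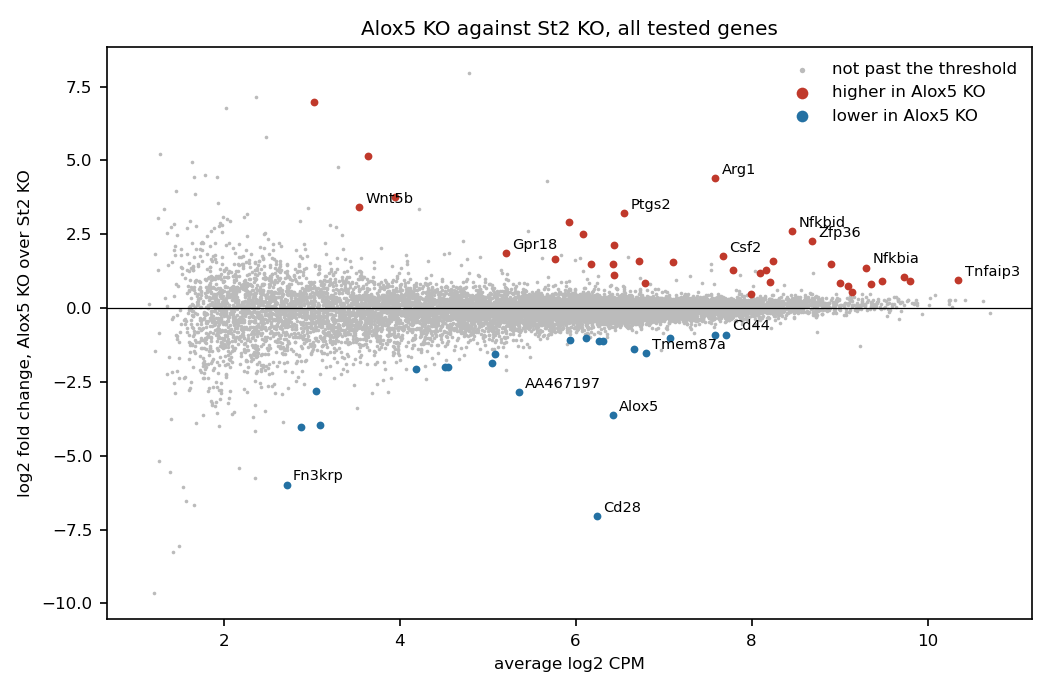
Each point is 1 of the 11742 tested genes, with the average log2 CPM on the x axis and the log2 fold change of Alox5 KO over St2 KO on the y axis; coloured points are the 57 called genes. The called genes higher in Alox5 KO include abundant genes such as Tnfaip3 and Nfkbia and reach 6.97 at the pseudogene Hmgb1-ps8, whose St2 KO libraries held a single count, and those lower in Alox5 KO reach -7.03 at Cd28.

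The sample codes fall into 3 sets whose meaning is not stated. Set TS holds replicates 1 and 2 of both genotypes, TT holds Alox5 KO 3 and 4, and TY holds St2 KO 3 and 4, so only TS holds both genotypes. Total gene counts were 2086864 to 2587732 in Alox5 KO and 2737714 to 3216937 in St2 KO. Xist, the RNA of the inactive X chromosome, was at 529.9 and 573.0 CPM in St2 KO 3 and 4 and at most 3.46 CPM in the other 6 libraries. The Y-linked gene Ddx3y was at 0 and 0.68 CPM in St2 KO 3 and 4 and at least 270.7 CPM in the others. St2 KO 3 and 4 were therefore read as female, and set TY and sex cannot be told apart. With edgeR, 0 of 353 tested genes on chromosome X were called (33 at an unadjusted p under 0.05, 1 called by DESeq2 and 0 by limma-voom). Of 7 tested genes on chromosome Y, 0 were called by edgeR, DESeq2 or limma-voom, with 2 at an unadjusted p under 0.05. All of these fits held a term for set TY, which takes up a difference shared by the TY libraries, sex included. The counts on X and Y therefore cannot show whether sex entered the contrast. In TS alone, whose 4 libraries of these genotypes were read as male, 19 of 11958 tested genes were called (0.159%), 14 higher and 5 lower in Alox5 KO, and all 19 were among the 57. These 19 were Fosb, Gadd45b, Csf2, Arg1, Id2, Nfkbia, Ptdss1, Nr4a1, Alox5, Cd28, Cd69, Ptgs2, AA467197, Tmem87a, Nfkbiz, Nfkbid, Zfp36, Gpr18 and Gm43430, and every other called gene named below missed the threshold in TS alone. All 57 kept their direction in TS, whose libraries also entered the full model. The 19 also had that direction, with no overlap, between the TT libraries of Alox5 KO and the TY libraries of St2 KO, as did 28.2% of the genes tested in TS. Without Alox5 KO 1, Alox5 KO 2 and St2 KO 1, 3 libraries low in plasma cell transcripts, 11 genes were called, all among the 57; this leaves no Alox5 KO library in TS and was chosen after the data were seen.

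The ILC2 label was read against its markers. The summed level of the 20 ILC2 identity markers was 8382 to 10440 CPM in Alox5 KO and 7526 to 8726 CPM in St2 KO. Gata3, the lineage-defining transcription factor, had 523, 619.6, 557 and 612 CPM in Alox5 KO and 643, 561, 685 and 585 CPM in St2 KO. Il17rb, which encodes a subunit of the IL-25 receptor, had 942 ± 48.3 CPM in Alox5 KO and 882 ± 20.3 CPM in St2 KO. Levels of both genes overlapped between the genotypes, with log2 fold changes of -0.02 ± 0.096 (95% confidence interval -0.22 to 0.19) and 0.09 ± 0.072 (-0.06 to 0.24). Rora, Il7r, Klrg1, Il2ra, Kit, Nmur1, Thy1, Icos, Hes1, Ccr9 and Calca were all detected in every library, and none of them was called. Of the 18 tested markers, Arg1 alone was called, and Ptgdr2 and Il1r2 were too low to be tested. The tested markers had 15 members above 0 and 3 below, a median of 0.20 and 5 at an unadjusted p under 0.05. Their mean log2 CPM, Arg1 included, was 8.127 to 8.381 in Alox5 KO and 7.576 to 8.01 in St2 KO, without overlap.

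Markers of other cells were low or uneven. Genes of B and plasma cells summed to 449.4 to 1243 CPM in Alox5 KO and 570.6 to 1091 CPM in St2 KO. Among these, Jchain, the joining chain of secreted antibody, was at 1.98, 33.4, 464 and 707 CPM in Alox5 KO and 33.0, 366, 464 and 397 CPM in St2 KO, so Alox5 KO 1 and 2 and St2 KO 1 were low. Pax5 was at 0 in all 8 libraries. Macrophage and dendritic markers summed to 325.4 to 666.8 CPM in Alox5 KO and 226.0 to 442.5 CPM in St2 KO, most of it in class II genes and Cd74, while Itgam and Fcgr1 were at 0. All 6 tested members of that list were above 0, with a median of 1.31 (1.29 in TS alone), the highest of the 33 lists, and 1 had an unadjusted p under 0.05. T cell genes summed to 865.8 to 1173 CPM in Alox5 KO and 763.1 to 874.2 CPM in St2 KO, mostly transcripts of the receptor constant regions and Lat, with Cd8b1 at 0. Epithelial markers summed to 23.2 to 90.5 CPM in Alox5 KO and 41.7 to 69.8 CPM in St2 KO, and granulocyte markers to 2.37 to 19.7 CPM and 7.61 to 21.3 CPM, with Epx, Siglecf and S100a8 at 0. Of the tested members of these 5 lists, 0 were called by edgeR or limma-voom and 1, an epithelial marker, by DESeq2, with 7 at an unadjusted p under 0.05. Genes of ILC1 and NK cells summed to 1014 to 1345 CPM in Alox5 KO and 785.6 to 995.0 CPM in St2 KO, without overlap, and 7 of 8 tested members were above 0 (median 0.41; 0 called by the 3 tools, 2 at an unadjusted p under 0.05). ILC3 markers (3 tested) and stromal markers (2 tested) had overlapping sums and 0 calls by the 3 tools, with 0 at an unadjusted p under 0.05. The 5 tested sex-linked genes gave 0 calls, with 2 at that p, in fits whose set term takes up a difference of set TY. The part of these cells in the results below was not tested.

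The targeted genes were read first. Alox5 (ENSMUSG00000025701, chromosome 6 between 116410077 and 116461178) had 4.74, 12.2, 11.01 and 11.9 CPM in Alox5 KO and 86.5, 159.9, 111 and 75.3 CPM in St2 KO. All Alox5 KO libraries lay far below all St2 KO libraries, with some transcript left in each. The log2 fold change was -3.62 ± 0.43 (adjusted p = 0.0001039), and the call stood in TS alone (-3.86, adjusted p = 0.03138). Il1rl1 (ENSMUSG00000026069, chromosome 1 between 40429570 and 40465415) had 149.8, 303, 180.1 and 217 CPM in Alox5 KO and 197, 157, 209 and 124 CPM in St2 KO. These ranges overlapped, and the log2 fold change of 0.22 ± 0.27 (95% confidence interval -0.35 to 0.80) did not pass (adjusted p = 0.7945). The level of Il1rl1 thus did not bear out the label St2 KO. Counts per gene cannot show a deletion that spares some exons, and whether the allele is of that kind was not tested. Il13, the locus of the reporter that all mice carried, had 6.99 ± 2.94 CPM in Alox5 KO and 5.34 ± 3.999 CPM in St2 KO, with overlapping libraries (log2 fold change 0.89 ± 0.65, adjusted p = 0.6182).

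Arg1 (ENSMUSG00000019987, chromosome 10 between 24915221 and 24927484) encodes arginase 1, which splits arginine, and is expressed by resting ILC2. It had 452, 364, 359.7 and 374 CPM in Alox5 KO and 23.2, 12.5, 22.0 and 31.0 CPM in St2 KO. The lowest Alox5 KO library was over 10 times the highest St2 KO library, and the log2 fold change was 4.40 ± 0.20 (adjusted p = 1.422e-10; in TS 4.53, adjusted p = 3.612e-05). The other Yarg carriers, Il25 KO, stood at 21.5 ± 3.50 CPM and the other animals without Yarg, WT, at 335 ± 36.8 CPM, so the level of Arg1 followed the Yarg allele across all 4 genotypes. Of the 11 tested arginine and polyamine genes Arg1 alone was called, and the list had 8 members above 0, 3 below and a median of 0.09.

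**Figure D2:**
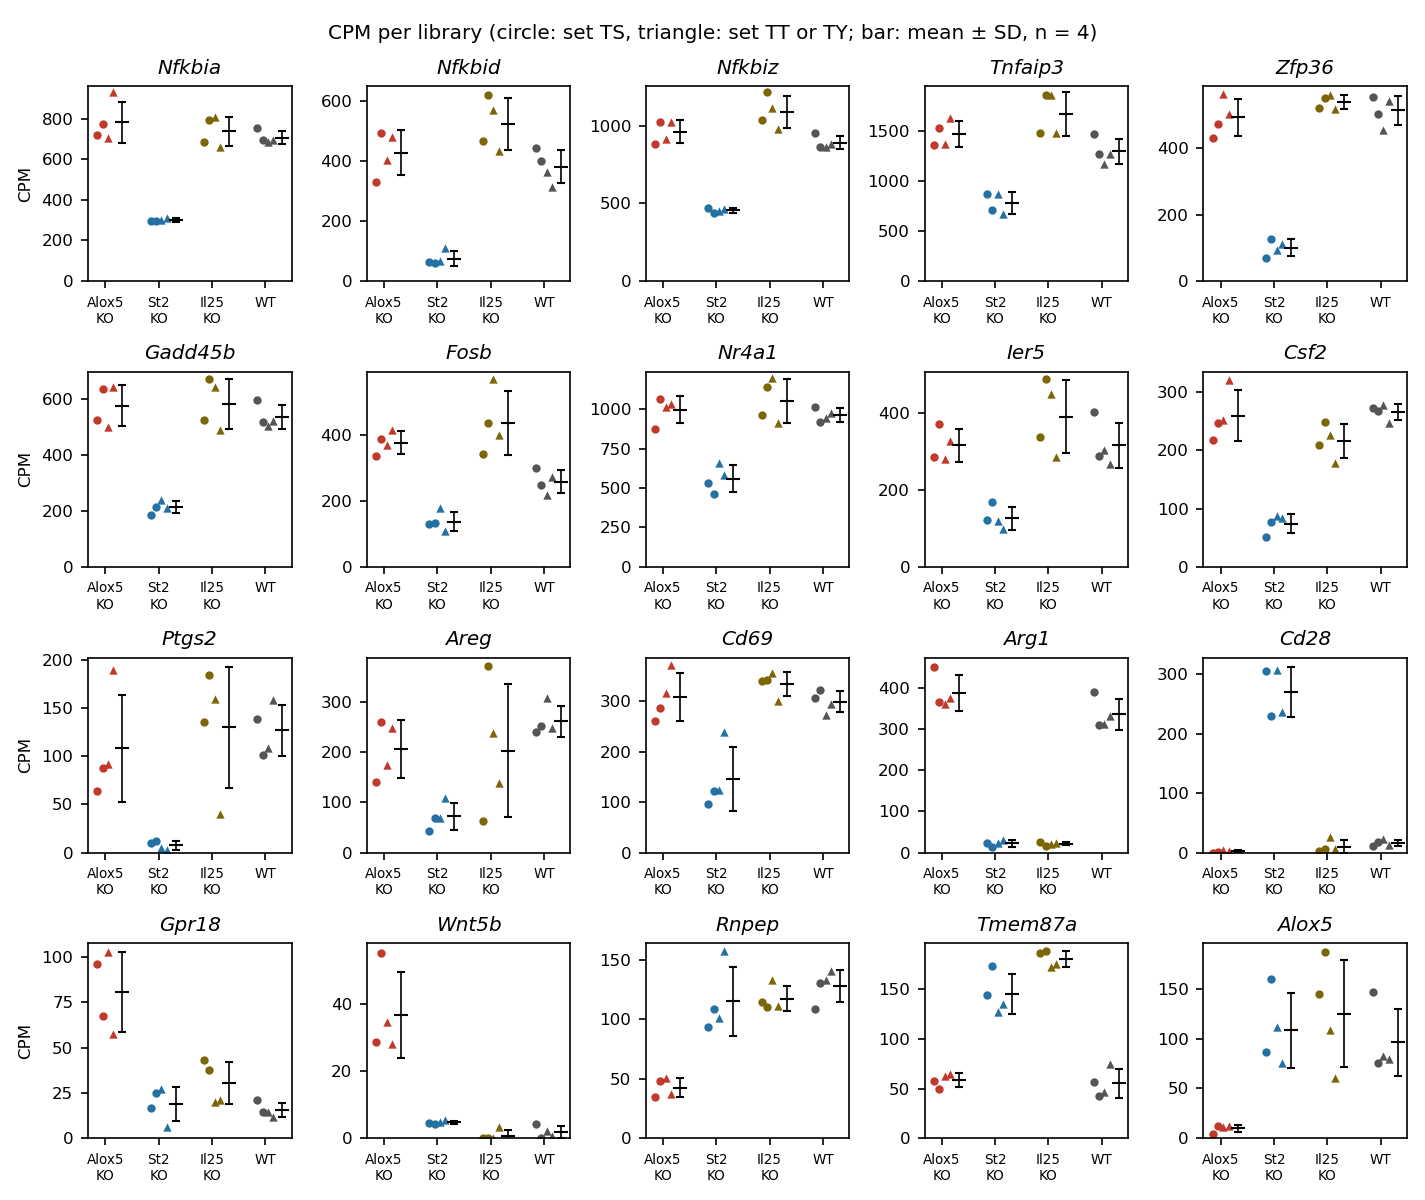
CPM of 20 named genes (y axis, linear and from 0) in each library of Alox5 KO, St2 KO, Il25 KO and WT, with circles for set TS and triangles for TT or TY and the mean ± SD at the right of each group. The St2 KO libraries stand alone at low values of Nfkbia, Nfkbid, Zfp36 and Csf2 and at high values of Cd28, whereas Arg1 and Tmem87a pair St2 KO with Il25 KO, and in Gpr18, Wnt5b, Rnpep and Alox5 no library of another genotype reaches the Alox5 KO libraries.

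Nfkbia, Nfkbid, Nfkbiz and Tnfaip3, which encode inhibitors and nuclear partners that NF-kB induces, were higher in Alox5 KO. They are 4 of 13 tested genes of NF-kB inhibition and feedback, of which 0 were called lower (4 called by DESeq2 and by limma-voom, 3 in TS alone, 3 without Alox5 KO 1, Alox5 KO 2 and St2 KO 1, and 4 at an unadjusted p under 0.05), against 0.307% of all genes called higher. The list had 10 members above 0 and a median log2 fold change of 0.17, against -0.013 over all genes. Its members, like those of all lists here, were chosen with earlier results of these data known, so such shares are description only. Nfkbia (ENSMUSG00000021025, chromosome 12 between 55489410 and 55492647), which encodes IkB-alpha, the cytoplasmic anchor of NF-kB, had 721, 773, 707 and 929 CPM in Alox5 KO and 294, 295, 303 and 313 CPM in St2 KO. The St2 KO values lay within 20 CPM of each other and well below every Alox5 KO value (log2 fold change 1.37 ± 0.11, adjusted p = 1.09e-06; in TS 1.34, adjusted p = 0.0008511). Nfkbid (ENSMUSG00000036931, chromosome 7 between 30421732 and 30428746), which encodes the nuclear IkB protein IkBNS, had 332, 494, 405 and 480.2 CPM in Alox5 KO and 63.3, 59.1, 66.1 and 111 CPM in St2 KO. Again no library of one genotype reached the other, and the log2 fold change was 2.62 ± 0.23 (adjusted p = 1.794e-06; in TS 2.76, adjusted p = 0.0008511). Nfkbiz, for the nuclear co-activator IkB-zeta, had 879, 1025, 916 and 1022 CPM in Alox5 KO and 469, 437, 450.2 and 461 CPM in St2 KO. Its log2 fold change was 1.06 ± 0.095 (adjusted p = 2.872e-06), without overlap. Tnfaip3, for the ubiquitin-editing enzyme A20, had 1355, 1526, 1367 and 1623 CPM in Alox5 KO and 866, 705, 870.0 and 666 CPM in St2 KO. It was higher by 0.94 ± 0.13 (adjusted p = 0.0009101), without overlap, and missed the threshold in TS alone (0.88, adjusted p = 0.05791). The 9 members that were not called included Nfkbib at 0.17, Nfkbie at 0.35, Bcl3 at -0.05, Tnip1 at 0.07 and Cyld, a deubiquitinase, at 0.08.

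The stretch of 250 bases upstream of the start site is shown for 4 called genes, with matches to the searched motifs in capitals. Nfkbia, Nfkbid and Tnfaip3 are from the feedback list and Zfp36 is from the mRNA decay list. The sequences are RefSeq promoters of build GRCm38.p6, written 5′ to 3′ on the gene's strand, with 1 of several promoters of Nfkbid and of Tnfaip3 shown: Nfkbia at chr12:55492648-55492897, minus strand; Nfkbid at chr7:30422156-30422405, plus strand; Tnfaip3 at chr10:19015411-19015660, minus strand; and Zfp36, which encodes an mRNA decay factor described below, at chr7:28379229-28379478, minus strand.
Nfkbia: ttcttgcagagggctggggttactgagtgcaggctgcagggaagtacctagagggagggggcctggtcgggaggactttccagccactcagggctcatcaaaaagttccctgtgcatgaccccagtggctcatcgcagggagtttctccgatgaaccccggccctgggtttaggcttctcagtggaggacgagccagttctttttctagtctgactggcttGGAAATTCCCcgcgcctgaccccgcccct
Nfkbid: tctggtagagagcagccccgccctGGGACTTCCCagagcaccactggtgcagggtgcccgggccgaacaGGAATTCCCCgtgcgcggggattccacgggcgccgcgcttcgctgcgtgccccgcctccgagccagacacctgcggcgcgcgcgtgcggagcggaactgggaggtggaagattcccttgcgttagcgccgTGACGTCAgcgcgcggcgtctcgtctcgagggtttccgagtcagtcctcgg
Tnfaip3: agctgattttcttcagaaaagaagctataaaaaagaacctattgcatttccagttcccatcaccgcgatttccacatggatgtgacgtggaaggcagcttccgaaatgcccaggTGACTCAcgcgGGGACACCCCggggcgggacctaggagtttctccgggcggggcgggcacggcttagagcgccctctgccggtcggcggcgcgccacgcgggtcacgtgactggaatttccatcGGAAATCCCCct
Zfp36: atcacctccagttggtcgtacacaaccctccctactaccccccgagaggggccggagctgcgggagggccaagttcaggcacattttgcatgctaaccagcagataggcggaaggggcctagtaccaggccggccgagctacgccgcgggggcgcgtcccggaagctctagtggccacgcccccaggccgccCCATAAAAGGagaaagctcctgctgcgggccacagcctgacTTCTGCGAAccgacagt
The capitals mark the 10-letter NF-kB consensus, the AP-1 letters TGANTCA, the CRE letters TGACGTCA, the STAT letters TTCNNNGAA and the CArG box of serum response factor. Both strands were searched over 250 bases before to 50 after each start, and none of the printed matches overlapped another. Counted upstream to its first base, the NF-kB match of Nfkbia lay at 29 bases, those of Nfkbid at 226 and 181 and those of Tnfaip3 at 125 and 12. Nfkbid had a CRE match at 51 bases, Tnfaip3 an AP-1 match at 136, and Zfp36 a CArG match at 58 and a STAT match at 17. Among the promoters of Nfkbid and Tnfaip3, only the printed ones held an NF-kB match. The other promoters of Nfkbid held STAT matches alone, and the other promoter of Tnfaip3 held no match. Of 15 called genes of the NF-kB, immediate early and decay lists, promoters of 12 were searched. Egr1, Map3k8 and Nfkbiz were left out of the search, which does not show that RefSeq lacks a promoter for them. The shares of the 12 genes say nothing of Egr1, Map3k8 or Nfkbiz. The NF-kB consensus was in 5 of these 12 genes (Fosb, Nfkbia, Nfkbid, Nr4a1 and Tnfaip3), against 8.46% of all 32851 promoters. The STAT letters were in 2 of 12 against 8.3%, the AP-1 letters in 1 against 7.81%, the CRE letters in 1 against 1.79% and the CArG box in 1 against 1.63%. Some genes had several promoters in the table, which raises their share. A match of letters describes the sequence and does not show that a factor binds there.

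The subunits and kinases of the pathway gave 1 call. Of 18 tested, 1 was higher and 0 lower (1 each by DESeq2 and limma-voom, 0 in TS alone or without Alox5 KO 1, Alox5 KO 2 and St2 KO 1, and 3 at an unadjusted p under 0.05), with 7 above 0, 11 below and a median of -0.08. The called member was Map3k8, which encodes the kinase TPL2 upstream of ERK. It had 105, 129, 97.5 and 91.0 CPM in Alox5 KO and 43.1, 29.8, 33.8 and 50.4 CPM in St2 KO, which did not overlap (1.61 ± 0.28, adjusted p = 0.008235; in TS 1.69, adjusted p = 0.1118, not called). The call ended without Alox5 KO 2 or St2 KO 2 (adjusted p up to 0.08073). Rel, for the subunit c-Rel, had 237, 396, 255 and 394 CPM in Alox5 KO and 127, 96.5, 171 and 168 CPM in St2 KO, with no overlap, but its log2 fold change of 1.25 ± 0.37 did not pass (adjusted p = 0.2279). Nfkb1 was at 0.44, Nfkb2 at -0.24, Rela at -0.11, Relb at 0.16, Ikbkb at -0.20 and Myd88, the adaptor of ST2, at -0.08, none of them called. Gm43430, a predicted gene that lies inside Nfkb1 on the same strand, was called higher (355 ± 63.1 CPM in Alox5 KO and 171 ± 18.8 CPM in St2 KO; 0.90 ± 0.15, adjusted p = 0.006039), and its reads may belong to Nfkb1. That call ended without Alox5 KO 2 or St2 KO 2 (adjusted p up to 0.05143).

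Other known NF-kB targets were higher in Alox5 KO in 4 of 19 tested genes and lower in 0 (4 called by DESeq2, 2 by limma-voom, 3 in TS alone, 2 without Alox5 KO 1, Alox5 KO 2 and St2 KO 1, and 12 at an unadjusted p under 0.05), with 15 above 0 and a median of 0.41. Gadd45b, a stress-induced regulator of MAP kinase signalling, had 528, 639, 502 and 643 CPM in Alox5 KO and 187, 214, 240.2 and 211 CPM in St2 KO. All Alox5 KO libraries were more than 2 times the highest St2 KO library (log2 fold change 1.49 ± 0.14, adjusted p = 7.484e-06; in TS 1.54, adjusted p = 0.003116). Csf2 (ENSMUSG00000018916, chromosome 11 between 54247271 and 54249667), which encodes the cytokine GM-CSF, had 218, 247, 252 and 321 CPM in Alox5 KO and 50.8, 76.1, 86.7 and 83.1 CPM in St2 KO. It was higher by 1.76 ± 0.18 (adjusted p = 1.967e-05), without overlap, and by 1.86 in TS (adjusted p = 0.002969). The span of an antisense gene, Gm12223, overlaps that of Csf2. Reads from a stretch that both share cannot be told apart in a library without strand. Ptgs2 (ENSMUSG00000032487, chromosome 1 between 150100031 and 150108227), the inducible cyclooxygenase that makes prostaglandin H2, had 64.4, 87.7, 92.4 and 189.9 CPM in Alox5 KO and 9.76, 12.2, 5.14 and 2.73 CPM in St2 KO. Alox5 KO 4 was the highest and all St2 KO libraries were far lower, for a log2 fold change of 3.21 ± 0.59 (adjusted p = 0.01577; in TS 2.78, adjusted p = 0.01549). The Ptgs2 call ended without any 1 of Alox5 KO 2, St2 KO 1, St2 KO 2 or St2 KO 3 (adjusted p up to 0.09618). Mir155hg, the host transcript of miR-155, had 77.9, 114, 71.6 and 124 CPM in Alox5 KO and 24.2, 8.83, 13.96 and 10.2 CPM in St2 KO (2.50 ± 0.45, adjusted p = 0.009614; in TS 2.57, adjusted p = 0.233, not called), a call that ended without Alox5 KO 2 or St2 KO 2 (adjusted p up to 0.1109). Among those not called, Traf1 had 253, 389, 282 and 359 CPM in Alox5 KO and 188, 174, 190.2 and 192 CPM in St2 KO (0.79 ± 0.26, adjusted p = 0.2707), whereas Ltb at -0.01, Cflar at -0.11 and Traf2 at 0.09 were near 0.

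Of 26 tested immediate early genes 5 were higher in Alox5 KO and 0 lower (7 called by DESeq2, 4 by limma-voom, 2 in TS alone, 1 without Alox5 KO 1, Alox5 KO 2 and St2 KO 1, and 16 at an unadjusted p under 0.05). In all, 24 members were above 0, and the median was 0.56. Fosb, a FOS-family partner of AP-1, had 334, 388, 367 and 414 CPM in Alox5 KO and 128, 134, 177 and 109 CPM in St2 KO. The groups lay clearly apart (log2 fold change 1.58 ± 0.18, adjusted p = 6.711e-05; in TS 1.46, adjusted p = 0.004794). Nr4a1, an orphan nuclear receptor induced by receptor signalling, had 875, 1066, 1016 and 1035 CPM in Alox5 KO and 534, 459.5, 661 and 581 CPM in St2 KO. It was higher by 0.91 ± 0.12 (adjusted p = 0.0006229), without overlap. Ier5 had 285, 372, 279 and 328 CPM in Alox5 KO and 121, 168, 118 and 97.1 CPM in St2 KO, for 1.29 ± 0.20 (adjusted p = 0.003044; in TS 1.18, adjusted p = 0.1501, not called), also without overlap. Jun, the core AP-1 subunit, had 185, 238, 324 and 221 CPM in Alox5 KO and 71.4, 145, 54.3 and 61.0 CPM in St2 KO (1.29 ± 0.27, adjusted p = 0.03131; in TS 0.95, adjusted p = 0.354, not called). St2 KO 2 was the highest of its group, and the Jun call ended in 8 of 16 fits that left out 1 library each, those without WT 1, WT 2, Alox5 KO 2, Il25 KO 1, Il25 KO 3, St2 KO 1, St2 KO 3 or St2 KO 4 (adjusted p up to 0.1603). Egr1, a zinc finger factor downstream of ERK, had 33.6, 104, 48.8 and 46.0 CPM in Alox5 KO and 3.70, 8.53, 5.14 and 18.7 CPM in St2 KO (2.90 ± 0.56, adjusted p = 0.01751; in TS 3.46, adjusted p = 0.1338, not called), with a call that ended without Alox5 KO 2, St2 KO 1 or St2 KO 2 (adjusted p up to 0.2064). Several of the most abundant family members were not called. Fos had 729 ± 41.1 CPM in Alox5 KO and 592 ± 58.1 CPM in St2 KO (0.30 ± 0.10, adjusted p = 0.2963), and Junb had 1116 ± 92.7 and 891 ± 72.0 CPM (0.33 ± 0.100, adjusted p = 0.2187), the groups not overlapping in Fos or Junb. Btg2 was at 0.11, Klf6 at 0.13, Nr4a2 at 0.23 and Srf at -0.59.

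Zfp36 (ENSMUSG00000044786, chromosome 7 between 28376784 and 28380253) encodes tristetraprolin, which marks AU-rich cytokine mRNA for decay. It had 432, 473, 564 and 505 CPM in Alox5 KO and 68.7, 126, 95.1 and 113 CPM in St2 KO. The lowest Alox5 KO library was over 3 times the highest St2 KO library, and the log2 fold change was 2.26 ± 0.16 (adjusted p = 1.076e-07; in TS 2.20, adjusted p = 0.00195). Of 13 tested mRNA decay genes Zfp36 alone was called (2 by DESeq2, 1 by limma-voom, 2 at an unadjusted p under 0.05), with a median of 0.17. Its paralogs Zfp36l1 and Zfp36l2 were at 0.07 and 0.11. Zc3h12a, the RNase Regnase-1, had 37.9, 70.4, 78.2 and 73.2 CPM in Alox5 KO and 26.3, 18.9, 52.5 and 34.1 CPM in St2 KO, which overlapped (1.25 ± 0.35, adjusted p = 0.1877). MAP kinase phosphatases and Sprouty genes gave 0 calls of 12 with edgeR, DESeq2 and limma-voom (3 at an unadjusted p under 0.05); Dusp1 was at 0.17 and Dusp5 at 0.24.

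Further signalling genes higher in Alox5 KO came from several families. Cd69, an early activation receptor that retains lymphocytes in tissue, had 262, 287, 316 and 372 CPM in Alox5 KO and 95.9, 122, 124 and 238 CPM in St2 KO. St2 KO 4 came nearest to the Alox5 KO libraries without reaching them (1.20 ± 0.22, adjusted p = 0.01192; in TS 1.33, adjusted p = 0.003116), and the call ended without Alox5 KO 2, St2 KO 1 or St2 KO 2 (adjusted p up to 0.09657). Cd69 was the 1 call of 17 tested calcineurin and NFAT genes (median -0.06; 1 at an unadjusted p under 0.05) and of 18 homing and residency genes (median 0.16; 3 at that p). Pim1, a STAT5-induced kinase, had 45.1, 76.7, 58.2 and 92.5 CPM in Alox5 KO and 19.5, 28.0, 18.7 and 15.7 CPM in St2 KO (1.65 ± 0.34, adjusted p = 0.02598; in TS 1.35, adjusted p = 0.3441, not called). Its call, the 1 among 19 STAT5 and SOCS genes (median 0.08), ended in 8 of 16 fits, those without WT 1, WT 2, WT 3, Alox5 KO 2 or any St2 KO library (adjusted p up to 0.1768). Id2, an inhibitor of E proteins that all innate lymphoid cells need, had 647, 599, 585 and 726 CPM in Alox5 KO and 399.9, 410.2, 408 and 516 CPM in St2 KO (0.56 ± 0.12, adjusted p = 0.03277; in TS 0.62, adjusted p = 0.04611). It was the 1 call of 18 ILC2 lineage factors (median 0.08) and ended in 9 of 16 fits, those without any 1 WT library, Alox5 KO 1, Alox5 KO 2, St2 KO 1, St2 KO 2 or St2 KO 3 (adjusted p up to 0.2162).

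Gem, a small GTPase of the RGK family, had 815, 938, 785 and 983 CPM in Alox5 KO and 497, 450.4, 403 and 375 CPM in St2 KO. It was higher by 0.92 ± 0.12 (adjusted p = 0.0004309), without overlap. The calls of Gem and Ier5 stood whichever single library was left out, but Gem missed the threshold in TS alone (0.89, adjusted p = 0.05791), as did Ier5, and both calls were lost without Alox5 KO 1, Alox5 KO 2 and St2 KO 1. Arl5c, of the ARF-like GTPases, had 106 ± 36.2 CPM in Alox5 KO and 20.2 ± 9.29 CPM in St2 KO (2.14 ± 0.41), and Ccrl2, an atypical receptor that binds chemerin, had 615 ± 77.0 and 354 ± 39.1 CPM (0.84 ± 0.16). Both calls ended without Alox5 KO 2 or St2 KO 2 (adjusted p up to 0.1512 and 0.1396). Eps8l1, related to an actin regulator, had 22.1, 17.7, 20.4 and 25.2 CPM in Alox5 KO and 0, 0, 0.734 and 8.86 CPM in St2 KO (3.77 ± 0.69); 2 St2 KO libraries had no count, and the call ended without St2 KO 2 (adjusted p = 0.05951). Calls that were lost in more of the 16 single-library fits were also found. The transcriptional repressor Bhlhe40 had 749 ± 77.2 CPM in Alox5 KO and 439 ± 67.6 CPM in St2 KO (0.80 ± 0.16) and was lost without Alox5 KO 2, Alox5 KO 4, St2 KO 1, St2 KO 2, Il25 KO 3, WT 1 or WT 3 (adjusted p up to 0.2084). Csrnp1 had 76.7 ± 16.8 CPM in Alox5 KO and 35.0 ± 17.3 CPM in St2 KO (1.51 ± 0.31) and was lost without Alox5 KO 2, Alox5 KO 4, St2 KO 1, St2 KO 2, St2 KO 4, Il25 KO 3 or WT 3 (up to 0.1546). The co-regulator Ifrd1 had 659 ± 116 CPM in Alox5 KO and 374 ± 57.0 CPM in St2 KO (0.76 ± 0.16) and was lost without Alox5 KO 2, St2 KO 2, St2 KO 4, Il25 KO 3 or any 1 WT library (up to 0.1759). The histone demethylase gene Kdm6b had 175 ± 49.0 CPM in Alox5 KO and 55.3 ± 20.2 CPM in St2 KO (1.57 ± 0.34) and was lost in 11 fits, all but those without Alox5 KO 1, Alox5 KO 3, St2 KO 3, Il25 KO 2 or Il25 KO 4 (up to 0.3139). The interferon-induced GTPase gene Gbp2 had 282 ± 18.4 CPM in Alox5 KO and 239 ± 12.9 CPM in St2 KO (0.47 ± 0.10) and was lost in all 16 fits (up to 0.211). Gbp2 was the 1 called of 25 interferon response genes, of which 20 were above 0 (median 0.42; 3 called by DESeq2, 0 by limma-voom, 9 at an unadjusted p under 0.05).

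Type 2 cytokine and effector genes were called in 2 of 16, Csf2 and Arg1, both higher in Alox5 KO (3 by DESeq2, 2 by limma-voom, 6 at an unadjusted p under 0.05). The list had 14 members above 0 and a median of 0.41, and 1.12 in TS alone. Areg, which encodes the epithelial growth factor amphiregulin, had 141, 260.3, 175 and 248 CPM in Alox5 KO and 43.1, 69.1, 68.7 and 109 CPM in St2 KO. The groups did not overlap, but the log2 fold change of 1.51 ± 0.55 (95% confidence interval 0.33 to 2.69) did not pass (adjusted p = 0.33). Il4 had 266, 282, 270.1 and 374 CPM in Alox5 KO and 228, 202, 216 and 278 CPM in St2 KO, which overlapped (0.34 ± 0.13, adjusted p = 0.3354). Il5 ranged from 47.8 to 96.4 CPM in Alox5 KO and from 19.5 to 92.7 CPM in St2 KO, and its 95% confidence interval of -1.70 to 2.04 allows changes of several-fold either way. Ccl1, a chemokine gene, had 68.0, 34.6, 14.9 and 68.7 CPM in Alox5 KO and 4.71, 10.0, 10.7 and 17.7 CPM in St2 KO, with overlap at Alox5 KO 3 (2.61 ± 0.65, adjusted p = 0.1175). Calca, for the neuropeptide CGRP, was at 0.29 and Il6 at 0.49.

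Receptors through which ILC2 receive signals gave 0 calls of 23 with edgeR, DESeq2 and limma-voom, with 8 at an unadjusted p under 0.05, 16 above 0 and a median of 0.09. Cysltr1, the receptor of cysteinyl leukotrienes, had 572, 570.5, 497 and 644 CPM in Alox5 KO and 522, 436, 456 and 439 CPM in St2 KO. These ranges overlapped, with 0.30 ± 0.10 (95% confidence interval 0.08 to 0.52, adjusted p = 0.2963). Cysltr2 was at 0.28, Ltb4r1 at 0.09, Nmur1, the neuromedin U receptor, at 0.03 and Icos at -0.27. Of 16 tested leukotriene and prostaglandin genes, Ptgs2 was called higher and Alox5 lower, with 12 above 0 and a median of 0.25. Alox5ap and Ltc4s, which encode the partner protein of 5-lipoxygenase and leukotriene C4 synthase, had 0 CPM in every Alox5 KO library and at most 1.36 and 0.34 CPM in St2 KO. Lta4h, for leukotriene A4 hydrolase, had 338 ± 21.0 CPM in Alox5 KO and 326 ± 7.79 CPM in St2 KO (0.08 ± 0.094). Pla2g4a, the phospholipase that frees arachidonic acid, had 34.4, 16.1, 27.5 and 21.8 CPM in Alox5 KO and 4.38, 3.65, 3.31 and 8.86 CPM in St2 KO, without overlap, and did not pass (2.47 ± 0.61, adjusted p = 0.1099). Gpr18, a receptor reported to sense lipids, had 96.0, 67.2, 103 and 57.4 CPM in Alox5 KO and 16.8, 25.0, 27.2 and 6.47 CPM in St2 KO. All Alox5 KO libraries were the higher, by 1.86 ± 0.34 (adjusted p = 0.01192; in TS 1.95, adjusted p = 0.04611), and the call ended without Alox5 KO 1, St2 KO 1 or St2 KO 2 (adjusted p up to 0.1243). It was the 1 call of 13 lipid-sensing receptor genes (median 0.16).

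**Figure D3:**
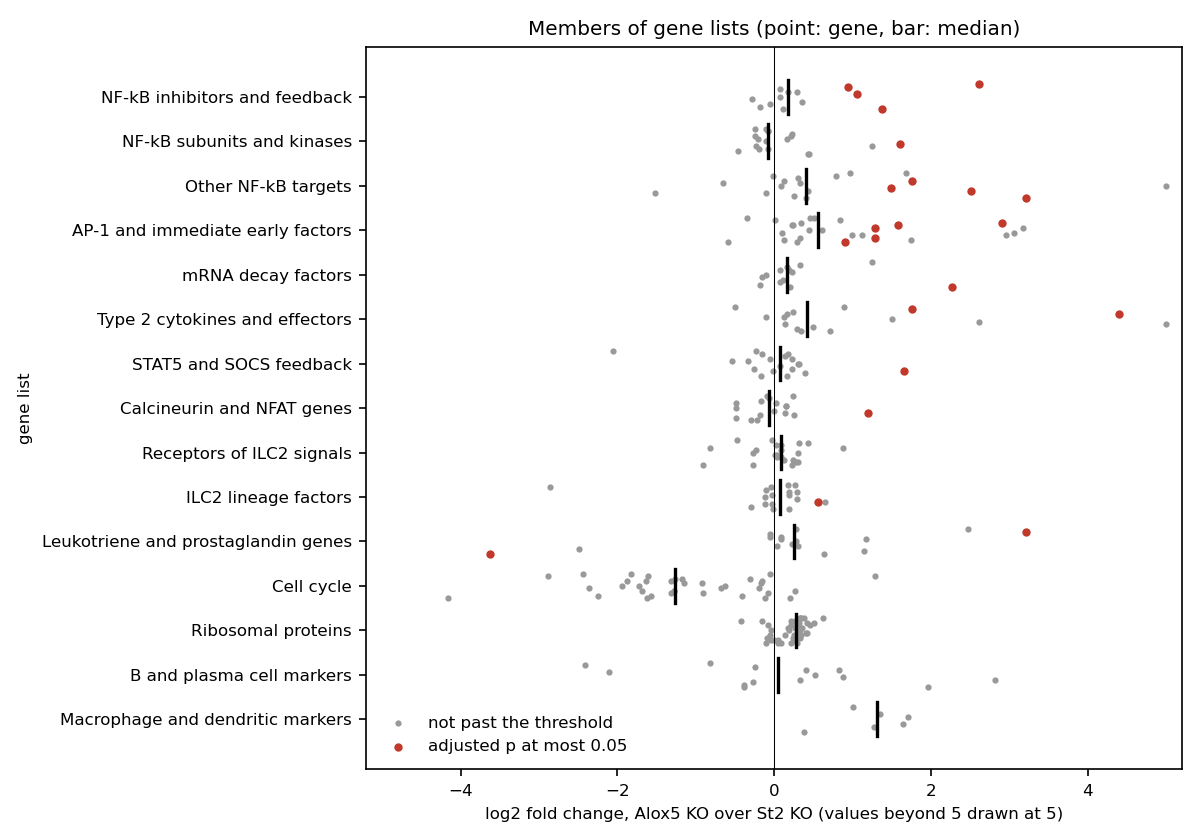
Log2 fold change of Alox5 KO over St2 KO (x axis, values beyond 5 drawn at 5) for each tested member of 15 gene lists, with called genes in red and the list median as a bar. The called members of the NF-kB feedback, NF-kB target and immediate early lists lie right of 0, between 0.91 and 3.21, the subunit and kinase list is centred near 0, and the cell cycle list is centred at -1.27 with 0 called members.

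Cd28 (ENSMUSG00000026012, chromosome 1 between 60716800 and 60773359), the costimulatory receptor of T cells, had the largest fall among called genes. It had 0, 1.57, 4.32 and 3.46 CPM in Alox5 KO and 305, 230.2, 308 and 236 CPM in St2 KO. Alox5 KO libraries were near or at 0 and every St2 KO library was above 200 CPM, with a log2 fold change of -7.03 ± 0.49 (adjusted p = 3.146e-08; in TS -8.32, adjusted p = 2.322e-05). The level was 10.2 ± 10.6 CPM in Il25 KO and 15.9 ± 5.30 CPM in WT. Cd3e, a defining T cell gene, had 1.19, 3.15, 24.8 and 29.2 CPM in Alox5 KO and 20.5, 17.97, 23.9 and 32.02 CPM in St2 KO, low in Alox5 KO 1 and 2 and overlapping otherwise. The 12 tested T cell genes gave 0 calls (3 at an unadjusted p under 0.05; 0 called by DESeq2 and limma-voom), and their part in the Cd28 result was not tested. Cd28 was the 1 call of 11 genes of the CD28 family and checkpoint receptors, whose median was 0.06. Icos, next to Cd28 on chromosome 1, had 672, 756, 613 and 884 CPM in Alox5 KO and 994, 818, 955 and 760.0 CPM in St2 KO, which overlapped (-0.27 ± 0.14, adjusted p = 0.4818). Ctla4, at the same locus, was at -0.49 with 1 high library, St2 KO 4.

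Other genes lower in Alox5 KO had varied functions. Fn3krp, a kinase that repairs glycated proteins, had 1.19, 0, 0.393 and 0.495 CPM in Alox5 KO and 18.2, 22.2, 26.1 and 16.01 CPM in St2 KO (-5.98 ± 0.98, adjusted p = 0.001615; in TS -4.996, adjusted p = 0.06755, not called), without overlap. Ptdss1, a phosphatidylserine synthase, had 169, 137, 147 and 141 CPM in Alox5 KO and 289, 298, 248 and 303 CPM in St2 KO (-0.93 ± 0.12, adjusted p = 0.0002279; in TS -0.94, adjusted p = 0.02117). Its antisense neighbour Mterf3 was at -0.67 and not called (adjusted p = 0.05942), and reads of their overlap cannot be assigned. Cd44, the hyaluronan receptor of activated lymphocytes, had 133, 134, 139 and 153 CPM in Alox5 KO and 266, 235, 264 and 282 CPM in St2 KO. The groups lay apart by -0.90 ± 0.13 (adjusted p = 0.0009469), and in TS alone the change missed the threshold (-0.90, adjusted p = 0.05791). Rnpep, aminopeptidase B, had 34.8, 48.4, 50.3 and 37.1 CPM in Alox5 KO and 93.2, 109, 101 and 158 CPM in St2 KO (-1.38 ± 0.20, adjusted p = 0.001394; in TS -1.28, adjusted p = 0.05966, not called), also apart. Tmem87a, a membrane protein of the Golgi, had 58.1, 49.5, 62.9 and 64.8 CPM in Alox5 KO and 144, 174, 128 and 136 CPM in St2 KO (-1.53 ± 0.17, adjusted p = 4e-05; in TS -1.57, adjusted p = 0.008593). AA467197 had 5.14, 14.9, 4.32 and 8.41 CPM in Alox5 KO and 54.9, 60.3, 57.7 and 56.9 CPM in St2 KO (-2.84 ± 0.34, adjusted p = 0.0001052; in TS -2.51, adjusted p = 0.04281), and Spata2l had 0, 0.786, 1.97 and 0.989 CPM in Alox5 KO and 10.8, 14.6, 7.71 and 12.9 CPM in St2 KO (-3.97 ± 0.69, adjusted p = 0.003526; in TS -4.87, adjusted p = 0.1442, not called, nor by limma-voom).

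The other genes called lower in Alox5 KO lost their call when single libraries were left out. Wdhd1, a replication factor, was at 12.5 ± 4.47 CPM in Alox5 KO and 35.8 ± 6.19 CPM in St2 KO (-1.99 ± 0.36), and Flcn, a regulator of lysosomal signalling, at 47.1 ± 8.59 and 99.1 ± 4.67 CPM (-1.11 ± 0.20). Both calls ended without Alox5 KO 2 or St2 KO 2 (adjusted p up to 0.09533 and 0.06994). Hjurp, which loads the centromeric histone, was at 98.1 ± 14.4 CPM in Alox5 KO and 173 ± 17.0 CPM in St2 KO (-1.03 ± 0.18) and was lost without St2 KO 2 (adjusted p = 0.0779). Ncoa6, a nuclear receptor coactivator (-1.12 ± 0.21), was lost without Alox5 KO 1, St2 KO 1 or St2 KO 2 (up to 0.1194). Poll, DNA polymerase lambda (-1.999 ± 0.41), was lost in 6 of 16 single-library fits, without WT 1, WT 4, Alox5 KO 1, Alox5 KO 2, Alox5 KO 4 or St2 KO 2 (up to 0.2223), and Iba57, a mitochondrial iron-sulphur protein (-4.01 ± 0.78), without Alox5 KO 1, Alox5 KO 2, St2 KO 1 or St2 KO 2 (up to 0.07839). Iba57 libraries overlapped, with 0 to 8.90 CPM in Alox5 KO and 5.79 to 14.8 CPM in St2 KO, and the Iba57 log2FC was -1.76 without the set term and -2.02 with a term for TY alone, not called in either. Lrrc8d, a subunit of the volume-regulated anion channel (-1.07 ± 0.23), was lost in 12 of 16 fits, all but those without St2 KO 4, Il25 KO 1, Il25 KO 4 or WT 4 (up to 0.2769), and the RNA methyltransferase gene Nsun5 (-1.01 ± 0.22) in 15, all but the fit without Alox5 KO 2 (up to 0.2566). Pcna-ps2, a pseudogene (-2.81 ± 0.59), was lost in 6 (up to 0.2528), without WT 1, WT 2, Alox5 KO 1, Alox5 KO 2, St2 KO 1 or St2 KO 2, and its reads may come from Pcna. Muc3, a membrane mucin of epithelium, was called higher in Alox5 KO (5.16 ± 1.04) from 56.9, 61.7, 3.15 and 4.95 CPM in Alox5 KO and 3.37, 0.305, 4.41 and 0 CPM in St2 KO, so that Alox5 KO 1 and 2 carried the difference and the groups overlapped. Its call was lost without Alox5 KO 1, Alox5 KO 2, St2 KO 2 or WT 4 (up to 0.1759), and after Alox5 KO 1, Alox5 KO 2 and St2 KO 1 were left out the value was -2.31, not called.

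Levels in the genotypes outside the contrast divided the called genes, by whether the Il25 KO and WT means lay on the Alox5 KO or the St2 KO side of the midpoint between them on the log2(CPM + 0.5) scale. This sorting was made after the values were seen, is a description and does not show that the genotypes on 1 side were alike or that those across the midpoint differed. In 31 genes, 27 higher and 4 lower in Alox5 KO, both Il25 KO and WT lay on the Alox5 KO side. They included all called NF-kB, immediate early and mRNA decay genes, Csf2, Ptgs2, Cd69, Pim1 and Id2, and in the other direction Cd28, Fn3krp, Ptdss1 and Gm37760. Nfkbia, for instance, was at 783 CPM in Alox5 KO, 301 CPM in St2 KO, 737 CPM in Il25 KO and 707 CPM in WT. In 10 genes, 3 higher and 7 lower, Il25 KO and WT lay on the St2 KO side: Wnt5b, Gpr18 and Gbp2 were higher in Alox5 KO, and Alox5, Rnpep, Flcn, Ncoa6, Poll, Spata2l and Iba57 were lower. The libraries of Alox5 KO and WT overlapped in Gbp2, Iba57, Ncoa6 and Poll. Gpr18 was at 80.8 CPM in Alox5 KO, 18.9 CPM in St2 KO, 30.5 CPM in Il25 KO and 15.5 CPM in WT. In 14 genes, 5 higher and 9 lower, WT lay with Alox5 KO and Il25 KO with St2 KO, which is the division between mice without and with Yarg. Tmem87a was at 58.8 CPM in Alox5 KO, 145 CPM in St2 KO, 181 CPM in Il25 KO and 55.4 CPM in WT. AA467197, on the same chromosome 2, was at 8.20, 57.4, 85.5 and 8.30 CPM in these genotypes in the same order. The other 11, besides Arg1, were Adat2, H60b, Hmgb1-ps8, Gm26740, Ndufa4, Cd44, Hjurp, Lrrc8d, Nsun5, Pcna-ps2 and ENSMUSG00000114496, which has no symbol in the table and overlaps Lrmda. The last had 140.0 ± 61.9 CPM in Alox5 KO and 35.5 ± 8.74 CPM in St2 KO (1.49 ± 0.29), a call lost without Alox5 KO 2, St2 KO 1 or St2 KO 2 (adjusted p up to 0.09776). Libraries without and with Yarg overlapped in that gene and in Cd44, Hjurp, Lrrc8d and Nsun5. The remaining 2 were Muc3 and Wdhd1.

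**Figure D4:**
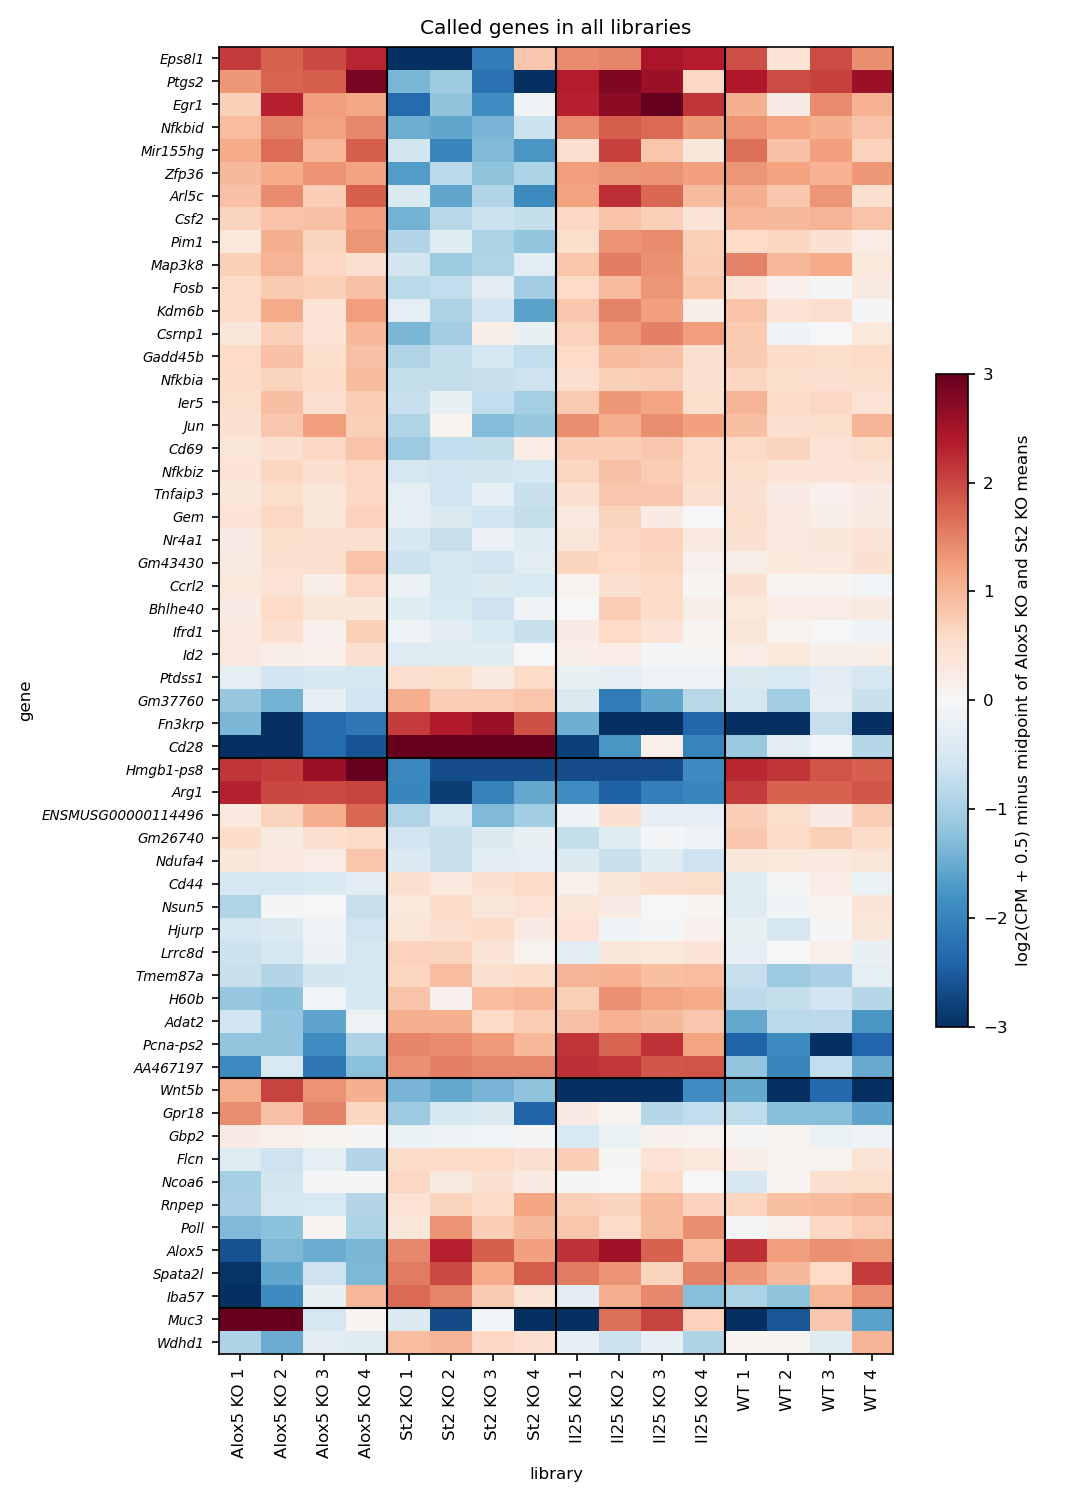
Each row is 1 of the 57 called genes and each column 1 of the 16 libraries; colour is log2(CPM + 0.5) minus the midpoint of the Alox5 KO and St2 KO means, from -3 to 3. From the top, the blocks are the 31 genes in which the Il25 KO and WT means lay on the Alox5 KO side of the midpoint, the 14 in which Il25 KO lay on the St2 KO side and WT on the Alox5 KO side, the 10 in which both lay on the St2 KO side and the remaining 2.

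Called genes were also read by their distance from the altered loci. Within 15 Mb of Arg1 on chromosome 10, 5 of 82 tested genes were called (6.1%, against 0.485% of all genes; 4 by limma-voom, 5 by DESeq2 and 20 at an unadjusted p under 0.05). These were Adat2, Tnfaip3, H60b, Gm26740 and Hmgb1-ps8, at -11.4, -5.91, -2.7, -2.68 and -2.66 Mb. Adat2, which edits transfer RNA, had 17.8, 11.8, 8.65 and 24.2 CPM in Alox5 KO and 57.6, 56.9, 40.4 and 45.6 CPM in St2 KO (-1.85 ± 0.31, adjusted p = 0.006028; in TS -1.95, adjusted p = 0.05791, not called), a call lost without Alox5 KO 2 (adjusted p = 0.07792). Hmgb1-ps8, a pseudogene, had 13.4, 13.0, 18.5 and 27.2 CPM in Alox5 KO and 0.337, 0, 0 and 0 CPM in St2 KO, where the only non-zero value is a single count (adjusted p = 0.009614), and was lost without St2 KO 2 (adjusted p = 0.1159). Gm26740, a predicted gene whose span holds this pseudogene, was higher by 1.133 ± 0.16 (adjusted p = 0.0009115). H60b, which encodes a ligand of the receptor NKG2D, overlaps the span of both on the other strand. It was lower, at -1.57 ± 0.33 (adjusted p = 0.03953). The H60b call was lost in 11 of 16 single-library fits, all but those without Alox5 KO 3, St2 KO 2, Il25 KO 1, Il25 KO 2 or WT 4 (up to 0.246). Reads from stretches that the 3 genes share cannot be assigned without strand, and overlap of their exons was not examined. Hmgb1-ps8, Gm26740, H60b and Adat2 lay with the Yarg division, and Tnfaip3 did not. Of the 5, 0 were called in TS alone, and 0 after Alox5 KO 1, Alox5 KO 2 and St2 KO 1 were left out.

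Within 15 Mb of Alox5 on chromosome 6, 3 of 151 tested genes were called (1.99%; 2 by limma-voom, 4 by DESeq2 and 21 at an unadjusted p under 0.05): Bhlhe40 at -7.77 Mb, Wnt5b at 3.05 Mb and Cd69 at 12.8 Mb. Wnt5b (ENSMUSG00000030170, chromosome 6 between 119432531 and 119544347), a secreted Wnt ligand, had 28.9, 55.4, 34.6 and 28.2 CPM in Alox5 KO and 4.71, 4.26, 4.77 and 5.45 CPM in St2 KO. No St2 KO library came near the Alox5 KO libraries (3.43 ± 0.56, adjusted p = 0.001134; in TS 3.22, adjusted p = 0.1338, not called), the level was 0.816 ± 1.63 CPM in Il25 KO and 1.83 ± 1.87 CPM in WT, and the call ended without Alox5 KO 2 (adjusted p = 0.06304). Ndufa4, a subunit of respiratory complexes on the same chromosome but 105 Mb away, had 137, 132, 126 and 193 CPM in Alox5 KO and 81.5, 67.9, 87.0 and 88.2 CPM in St2 KO (0.86 ± 0.16) and was lost without Alox5 KO 1, Alox5 KO 2 or St2 KO 2 (adjusted p up to 0.161). Within 15 Mb of Il1rl1 on chromosome 1, 0 of 100 tested genes were called by edgeR, DESeq2 or limma-voom (16 at an unadjusted p under 0.05). The called genes of chromosome 1 lay further off, Gm37760 and Cd28 at 18.4 and 20.3 Mb, Hjurp at 47.8, Rnpep at 94.8, Ptgs2 at 110 and Ier5 at 115 Mb. Gm37760, within Casp8 on the same strand, was lower, at -2.04 ± 0.36, and lost without Alox5 KO 1, Alox5 KO 2 or St2 KO 1 (adjusted p up to 0.07839), while Casp8 was at 0.14.

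**Figure D5:**
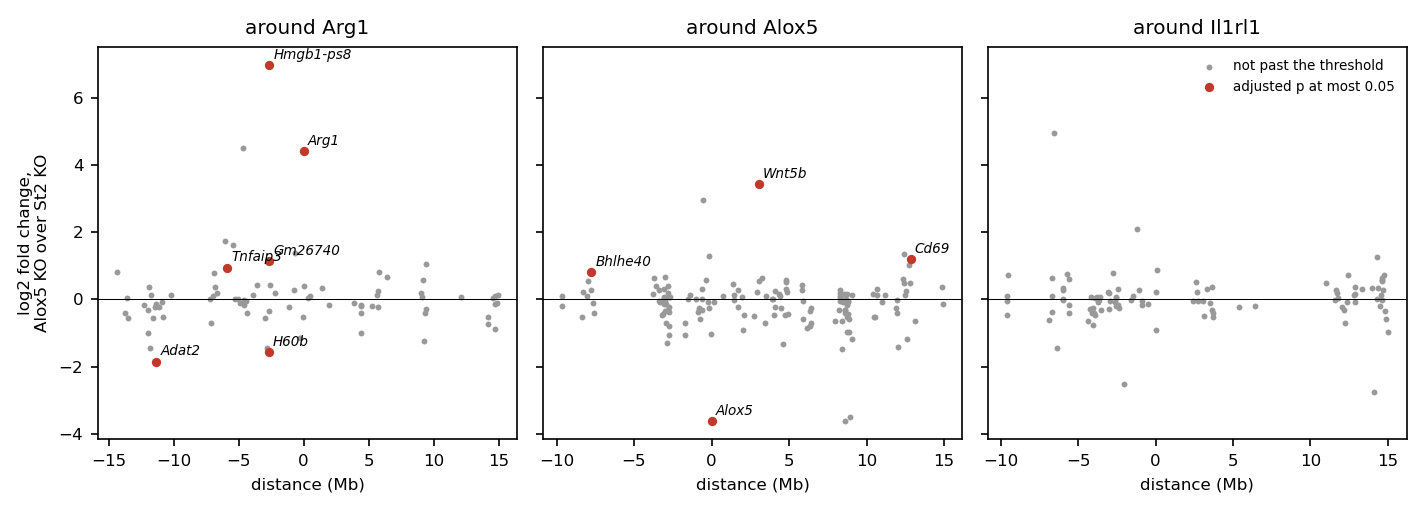
Log2 fold change of Alox5 KO over St2 KO (y axis) for tested genes within 15 Mb of Arg1, Alox5 and Il1rl1, by distance along the chromosome in Mb (x axis), with called genes in red. Besides the altered genes themselves, 5 called genes lie on 1 side of Arg1, 3 lie around Alox5, and 0 lie around Il1rl1.

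Cell cycle genes were below 0 in 33 of 36 tested members, with a median of -1.27, and 0 were called by edgeR, DESeq2 or limma-voom (12 at an unadjusted p under 0.05). Mki67, a marker of dividing cells, had 1.19, 26.3, 85.3 and 42.0 CPM in Alox5 KO and 5.72, 80.4, 33.0 and 14.99 CPM in St2 KO, which overlapped widely. Averaged over the list, log2 CPM stood at 3.235, 4.012, 4.588 and 4.507 in Alox5 KO and 2.772, 5.385, 4.43 and 3.712 in St2 KO, so St2 KO 2 was the highest. Without St2 KO 2 the list's median was -0.09, and without the set term it was -0.17. Cytosolic ribosomal protein genes were above 0 in 41 of 49 and mitochondrially encoded genes in 7 of 7, with medians of 0.28 and 0.37 and 0 calls by any of the 3 tools (13 and 7 at an unadjusted p under 0.05). The Alox5 KO and St2 KO libraries did not overlap in 23 of the 49 and 6 of the 7, against 9.69% of all tested genes. The cause of this was not tested. Heat shock chaperones (14 tested, median 0.11), TNF superfamily genes (20, median 0.02) and genes of lipid uptake and storage (14, median -0.07) gave 0 calls with edgeR and limma-voom and 0, 0 and 1 with DESeq2, with 5, 2 and 2 at an unadjusted p under 0.05.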

How the data were processed

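RNA of sorted duodenal ILC2 was sequenced in 16 libraries of 4 genotypes. The authors deposited 1 table of raw counts per gene; the tools FastQC 0.11.3, Picard 1.134, HTSeq 0.4.1 and STAR 2.4.2a and the build GRCm38 were used, per the submitters' processing notes. The counting settings, and any removal of duplicate reads, are not given in the sources used here. Per the labels' protocols the library kit was Nextera XT, whose reads carry no strand. Of 53471 rows, 6 with a repeated identifier were dropped, and 3433 genes without a symbol held 0.184% of counts. Gene positions came from GENCODE M21 on GRCm38, which held 99.8% of identifiers, and promoter sequences from RefSeq on GRCm38.p6.

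Counts were tested with edgeR 4.0.16 in R 4.3.3 (quasi-likelihood F test, robust, TMM scaling, default expression filter over the 4 genotypes, 11742 genes kept). Genotype and sample-code set were terms over all 16 libraries, which tie TT and TY to TS through WT and Il25 KO and leave 10 residual degrees of freedom. SE is the log2 fold change divided by the square root of F; the median SE was 0.263. The threshold was a Benjamini-Hochberg adjusted p of 0.05. Alternatives used DESeq2 1.42.0, limma-voom (limma 3.58.1), other scalings, filters and terms, TS alone and each library left out.

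The text names the targeted and reporter genes, up to 12 called genes each way by fold change (established symbol, average log2 CPM 3 or more), up to 4 called members of each of 33 lists, the ILC2 markers and called genes on chromosomes 6, 1 and 10, in all 59 genes. The 15 called genes outside this rule are named because they were called. Members, lists and the rule were chosen with earlier results of these data known. Some genes are in more than 1 list (Csf2, Ptgs2, Cd69 and Arg1 among those called).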

Additional observations from a re-analysis of the deposited data

Results flagged for a closer look

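Single libraries stood apart from the other 3 of their genotype in 8 of 148 groups of gene levels and 5 of 66 groups of list levels; the measure, the gap of the highest or lowest library divided by the range of its group, is exceeded by chance in about 1 of 20 groups. St2 KO 4 was the high library in 6 of the 13. It had 111.4 CPM of Nfkbid, against 59.1 to 66.1 CPM in the other St2 KO libraries, and 515.8 CPM of Id2, against 399.9 to 410.2 CPM. It had 499.8 CPM of Ccr9, against 450.7 to 452.2 CPM, and 8.857 CPM of Eps8l1, against 0 to 0.73 CPM. Its mean log2 CPM was 7.017 for homing and residency genes, against 6.874 to 6.896, and 3.188 for epithelial markers, against 2.431 to 2.489.

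Alox5 KO 1 had the lowest Alox5, 4.743 CPM against 11.01 to 12.19 CPM in the other Alox5 KO libraries, the highest Arg1, 451.8 CPM against 359.7 to 374.4 CPM, and the lowest mean log2 CPM of eosinophil, mast cell and neutrophil markers, 0.6204 against 1.677 to 1.836. Alox5 KO 4 had 193.4 CPM of Ndufa4, against 126.2 to 136.8 CPM. Hmgb1-ps8 was at 0.3366 CPM, 1 count, in St2 KO 1 and at 0 in the other St2 KO libraries. The St2 KO values of 2 lists were so close that small gaps were marked: the mean log2 CPM of NF-kB inhibitors was 7.25 in St2 KO 3, against 7.188 to 7.194, and that of other NF-kB targets was 5.89 in St2 KO 1, against 5.831 to 5.839. These levels all lay below those of the Alox5 KO libraries, which had at least 7.576 and 6.509.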

How the results depend on the processing

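The count of 57 called genes depended on how the sample-code sets entered. It was 19 in TS alone with 4 genotypes and 23 with only these 2, 122 without a set term, 31 in the 8 libraries of both genotypes with the set term and 92 without it. DESeq2 called 100, of which 56 were among the 57, and limma-voom 38, all among them. Leaving out 1 library at a time gave 27 to 64 calls, with 27 without St2 KO 2 and 33 without Alox5 KO 2; 22 of the 57 calls stood in all 16 of these fits and 35 were lost in at least 1. Without Alox5 KO 1, Alox5 KO 2 and St2 KO 1, a choice made after the data were seen, 11 were called, and Muc3 reversed to -2.31, not called. The cause of these differences was not tested, except that the smaller fits hold fewer samples. Other scalings, count filters and edgeR's legacy mode gave 49 to 57 calls, and a term for TY in place of all sets gave 75. Over all 31 alternatives, 10 calls stood in each: Alox5, Arg1, Cd28, Csf2, Fosb, Gadd45b, Nfkbia, Nfkbid, Nfkbiz and Zfp36. Of the list medians that were compared under alternatives, 594 moved by less than the spread between libraries and 26 by more. These did not cover every list under every alternative.

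The fit with the replicate number within each sample-code set as a block called 59 genes, 52 of them among the 57. The numbers do not pair the samples: deviations of same-numbered libraries correlated at 0.118, -0.058, -0.017 and -0.03 for replicates 1 to 4, so they share only a number. At a total of 2086864 to 3216937 counts per library, a gene with a few counts in 1 genotype, such as Hmgb1-ps8, has an uncertain fold change.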
